A study of Mus musculus with 2 samples.

Results

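Intermediate filament transcripts of progenitors and neurons were examined in mouse neural tube at embryonic day 12.5 as the mRNA levels of 8 genes: Vim, Nes, Gfap, Ina, Nefl, Nefm, Nefh and Prph. The rule took the members by symbol: they were the rows of the deposited gene tables whose gene ID carried a member's symbol in the GENCODE M21 annotation. All 8 were found, each with 1 gene ID, among 55536 genes. The series held 2 libraries of polyadenylated RNA from a single group, so no condition could be compared. Replicate 1 came from the pooled neural tubes of 120 embryos and replicate 2 from those of 88 embryos, both of mouse strain B6NCrl with males and females combined, and the labels named no treatment or altered gene. Each library began with 10 ng of RNA, and 33529531 estimated reads were counted in replicate 1 and 35461403 in replicate 2.

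Intermediate filaments are cytoplasmic or nuclear cables whose subunits share a coiled rod domain and are known for a stepwise change of subunits as neural cells mature. In the embryonic neural tube, dividing progenitors are known to build filaments from vimentin and nestin, young neurons add alpha-internexin, and the light, medium and heavy neurofilament subunits follow as axons grow. Peripherin belongs mainly to neurons whose axons leave the central nervous system, and the glial fibrillary acidic protein marks astrocytes, which arise later in development.

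The tissue carried the defining genes of neural progenitors and of neurons. All 10 listed progenitor genes and all 10 listed pan-neuronal genes had at least 1 TPM (reads divided by transcript length and scaled to the same sum in each library, so that levels of different genes can be compared) in both libraries. Sox2, a transcription factor of neural stem cells, stood at 38.9 and 37.9 TPM in replicates 1 and 2, and Tubb3, the neuronal beta-tubulin, at 953 and 982 TPM. Genes listed for other cells that a dissected tube can hold were also present. Summed levels were 307 and 419 TPM over 10 sensory ganglion genes and 830 and 853 TPM over 7 mesenchyme genes. The 6 skeletal muscle genes summed to 249.7 and 176 TPM. Whether cells of the tube itself also carried these RNAs was not measured, so the sums are not amounts of other cells. In bulk tissue, fewer cells of a type and less RNA per cell cannot be told apart.

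Intermediate filament genes are related in sequence through the rod domain, so reads could in principle match several of them. Identical runs between the members' transcripts were short: among 27 pairs of members the longest was 35 bases, between Nefm and Prph, and the remaining pair, Nefl and Nefm, overlaps in the genome and is described with its values.

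Of the 8 genes, 7 were expressed at 1 TPM or more in both libraries. Vim, which encodes the vimentin of progenitors and mesenchyme (chr2:13573927-13582826, plus strand), was highest, with 878 TPM in replicate 1 and 929.6 TPM in replicate 2 (904 ± 36.6 TPM, mean ± SD, n = 2 libraries here and below). Its mean ranked 78 among 22028 protein-coding genes. By deposited TPM, Vim lay above every other member in each library.

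The 3 abundant neuronal subunits came next and lay close to each other. Nefl, the light neurofilament subunit on which the others assemble (chr14:68083863-68089095, plus strand), had 569 and 683 TPM (626 ± 80.4). Ina, the alpha-internexin of young neurons (chr19:47014698-47025327, plus strand), had 494 and 506 TPM (500.2 ± 8.17). Nefm, the medium subunit (chr14:68082590-68124846, minus strand), had 438 and 469.9 TPM (454 ± 22.9). The ranges of these 3 genes over the libraries did not overlap, so the order Nefl, Ina, Nefm was the same in both, though Ina exceeded Nefm by only 1.13-fold and 1.08-fold. All 3 were among the 250 highest protein-coding genes by mean TPM, Nefm being the last of these.

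Nes and Prph formed a lower pair. Nes, which encodes the large progenitor filament protein nestin (chr3:87971078-87980451, plus strand), had 132 TPM in replicate 1 and 110.25 TPM in replicate 2 (121 ± 15.5). Prph, the peripherin of peripheral and other long-projecting neurons (chr15:99055174-99058978, plus strand), had 85.1 and 132 TPM (109 ± 33.3). This was the only pair of neighbours in the order whose ranges overlapped: Nes was 1.55 times Prph in replicate 1 and 0.834 times Prph in replicate 2. The step from Nefm down to Nes was 3.31-fold and 4.26-fold.

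The remaining 2 genes were far lower. Nefh, the heavy neurofilament subunit of mature, thick axons (chr11:4938754-4948064, minus strand), had 2.64 TPM from 215 reads in replicate 1 and 4.28 TPM from 361 reads in replicate 2 (3.46 ± 1.16). The 95% Poisson intervals of these levels, 2.30 to 3.02 TPM and 3.85 to 4.75 TPM, did not overlap. Prph, the next gene above Nefh, stood 32.2-fold and 30.9-fold higher in the respective libraries. Gfap, the astrocyte filament gene (chr11:102887336-102900912, minus strand), had 3 reads in replicate 1 and 5 in replicate 2, which gave 0.06 and 0.09 TPM with Poisson intervals of 0.0124 to 0.175 TPM and 0.0292 to 0.210 TPM. Gfap was thus at a level of a few reads in each library, and the intervals, which cover counting error only, overlapped. On a transcript of 1 kb, a single read equalled 0.0477 TPM in the first library and 0.0462 TPM in the second.

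**Figure D1:**
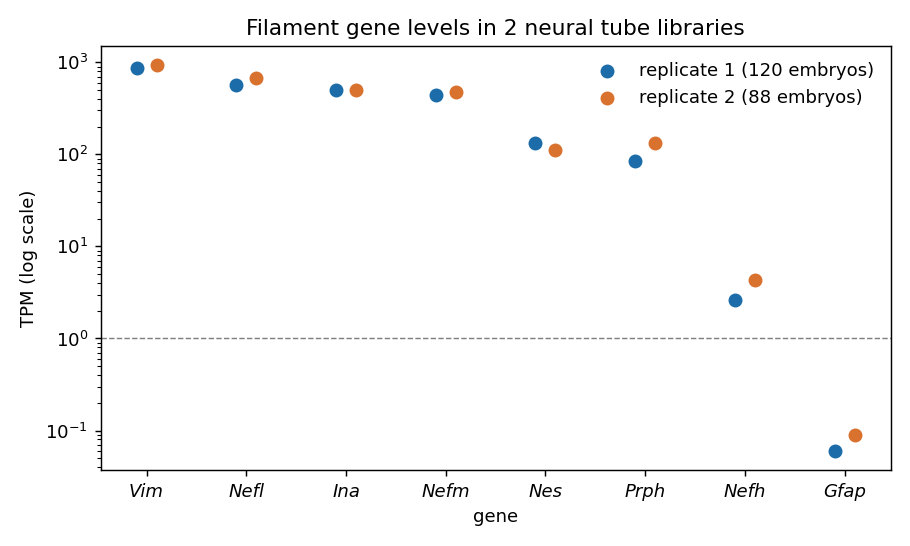
Level of each filament gene in TPM on a log axis, with 1 point per library and the dashed line at 1 TPM. Vim, Nefl, Ina and Nefm sit at 438 TPM or more, Nes and Prph lie between 85.1 and 132 TPM with crossed order, Nefh at 2.64 and 4.28 TPM, and Gfap at 0.06 and 0.09 TPM.

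Summed over the 8 genes, the filaments took 2599 TPM in replicate 1 and 2835 TPM in replicate 2, or 0.260% and 0.284% of all TPM. Vim made up 33.8% and 32.8% of this sum, Nefl 21.9% and 24.1%, Ina 19.0% and 17.8%, and Nefm 16.8% and 16.6%. Nes contributed 5.08% and 3.89%, Prph 3.27% and 4.66%, Nefh 0.102% and 0.151%, and Gfap 0.00231% and 0.00317%. The 5 neuronal subunits together held 61.1% and 63.3%, and the progenitor pair of Vim and Nes 38.9% and 36.7%. By summed TPM, the neuronal subunits were therefore 1.57 and 1.73 times the progenitor pair. The log2 ratio was 0.65 in replicate 1 and 0.79 in replicate 2 (0.72 ± 0.09). Vim, most of that pair, is also a gene of mesenchyme, and mesenchyme genes were present. The ratio therefore describes RNA in bulk tissue and not neurons against progenitors.

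**Figure D2:**
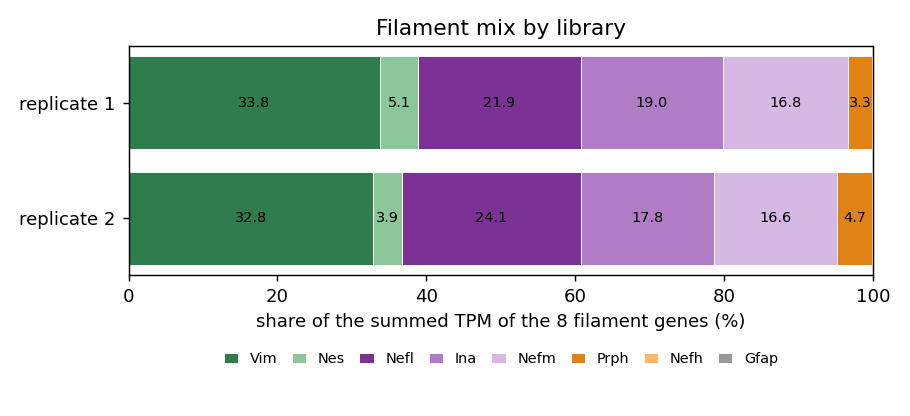
Share of each gene in the summed TPM of the 8 filament genes, as stacked percentages, with 1 bar per library. Vim takes about the same part of both bars, Nefl and Prph are wider in replicate 2, and Nes and Ina are wider in replicate 1; Nefh and Gfap are too small to be seen.

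Ratios of subunits within a library showed how far apart their levels lay. Nefm over Nefl, the core pair of the neurofilament, had a log2 ratio of -0.38 in replicate 1 and -0.54 in replicate 2 (-0.46 ± 0.11), so that Nefl was 1.30 and 1.45 times Nefm. Ina over Nefl was -0.20 and -0.43 (-0.32 ± 0.16). The 3 subunits thus differed from each other by at most 1.45-fold in either library.
Other ratios were wider. Nes over Vim, the progenitor pair, was -2.73 and -3.08 on the log2 scale (-2.90 ± 0.24), with Vim 6.65 and 8.43 times Nes. Nefh over Nefl was -7.75 and -7.32 (-7.53 ± 0.31), with Nefl 216 and 159.5 times Nefh. Among the 7 ratios computed, Prph over Ina differed most between the libraries, at -2.54 and -1.94 (-2.24 ± 0.43).

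The TPM of a gene divides its reads by the average length of the transcripts assigned to it, and for Vim that average was set by short forms. Vim reads were divided mainly among 3 transcripts: Vim-201, the annotated full-length coding form, with 29.2% and 30.8% of the gene's TPM, Vim-206, a shorter coding form, with 34.9% and 35.1%, and Vim-203 with 35.3% and 33.2%. Vim-203 is annotated as a retained-intron RNA of 535 bases without a coding sequence, and it took only 11.3% and 10.4% of the Vim reads. The 3 forms were thus nearly equal in TPM and unequal in reads. Vim-206 lacks 86 bases of exon 8 of Vim-201 (chr2:13581613-13581698, plus strand, GRCm38), all coding in Vim-201 and not a whole number of codons, which Vim-203 also holds; this stretch separates the coding forms.
Vim exon 8: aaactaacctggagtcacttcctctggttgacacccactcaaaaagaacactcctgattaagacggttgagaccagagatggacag
Transcripts with this stretch, Vim-201 and Vim-203 together, had 64.5% of Vim TPM in replicate 1 and 64.0% in replicate 2.

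When all reads of a gene were instead divided by the effective length of its longest coding transcript, a calculation added after the deposited levels were seen, Vim stood at 570.4 and 617 TPM (594 ± 33.1). Nefl, with a single annotated transcript, kept 569 and 683 TPM. Under that division Vim and Nefl were about equal in replicate 1 and Nefl was higher in replicate 2, so the order of Vim and Nefl depended on the transcript length used. Nes stood at 108 and 101 TPM and Prph at 76.7 and 121 TPM, and their ranges still overlapped. The mean log2 ratio of neuronal over progenitor filaments was 1.27 under that division, against 0.72 as deposited.

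**Figure D3:**
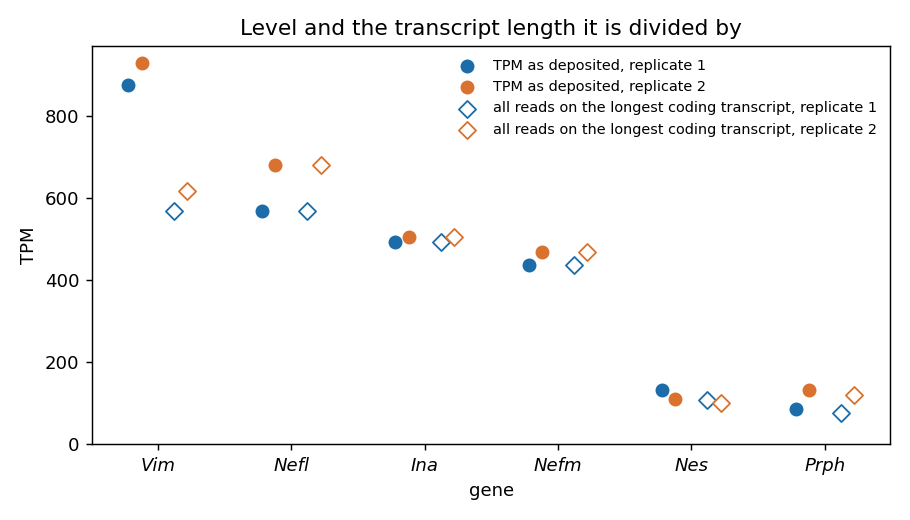
Level of the 6 most abundant filament genes in TPM on a linear axis, as deposited (filled circles) and with all reads of the gene placed on its longest coding transcript (open diamonds), in each library. The Vim points fall from 878 and 929.6 TPM to 570.4 and 617 TPM, and Nefl, Ina and Nefm hardly move.

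Nes reads fell on 2 coding forms and a short RNA. Nes-201 held 61.6% and 71.0% of Nes TPM and Nes-203, the other coding form, 16.1% and 18.9%; the posterior SD of Nes-201 was 523 and 600.1 reads, so the division between these similar forms was uncertain. Nes-202, annotated as a retained-intron RNA at the 5′ end of the gene, held 22.3% in replicate 1 and 10.1% in replicate 2, from 749 and 292 estimated reads with posterior SDs of 52.8 and 46.1 reads. The estimate for Nes-202 was therefore higher in replicate 1 by more than the uncertainty of assigning its reads, a measure that holds no spread between pools. The average effective length of Nes was 4924 bases in replicate 1 and 5509 in replicate 2.

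Prph is known in mouse for alternative forms of its protein. Prph-201, the main coding form, held 83.2% and 84.7% of Prph TPM. Prph-202 held 6.67% and 4.54%, Prph-203 5.81% and 4.17%, and Prph-204 4.32% and 6.58%. Prph-202 and Prph-204 share 96 coding bases that Prph-201 lacks (chr15:99056937-99057032, plus strand, GRCm38), a whole number of codons kept between exons that Prph-201 joins.
Prph retained stretch: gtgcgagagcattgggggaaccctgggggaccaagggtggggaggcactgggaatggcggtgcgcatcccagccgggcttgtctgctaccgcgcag
The forms with this stretch had 11.0% of Prph TPM in replicate 1 and 11.1% in replicate 2, although the division between them was uncertain, with posterior SDs of 72.2 and 101 reads on estimates of 209.8 and 229 reads for Prph-202.
The other members had little choice of transcript. Nefl, Ina and Nefh have 1 annotated transcript each, Nefm-201 held 99.2% and 99.3% of Nefm TPM, and every Gfap read went to Gfap-201.

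**Figure D4:**
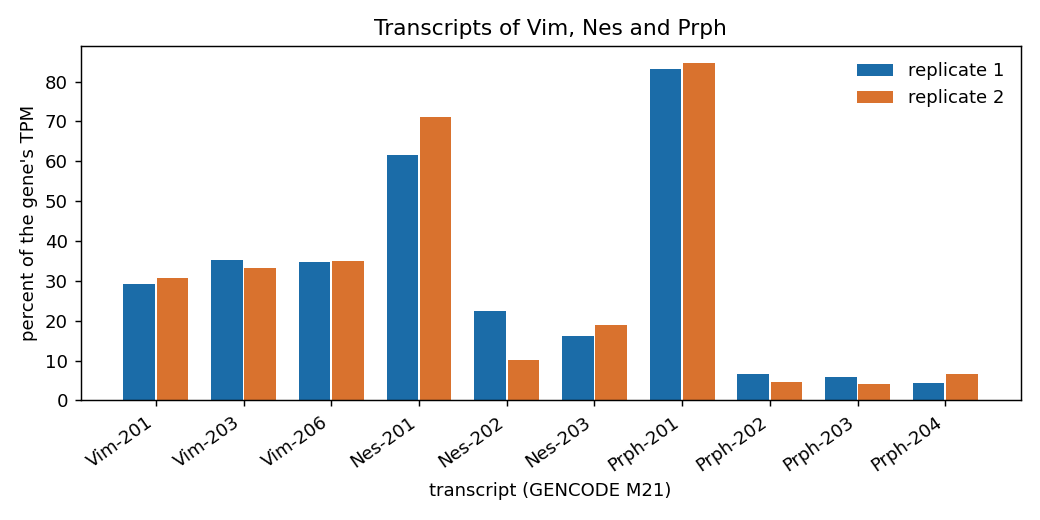
Percent of the gene's TPM held by each transcript of Vim, Nes and Prph with at least 5% in either library, as bars from 0 for each library. The 3 Vim forms stand between 29.2% and 35.3%, Nes-202 is at 22.3% in replicate 1 and 10.1% in replicate 2, and Prph-201 is at 83.2% and 84.7%.

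Nefl and Nefm lie side by side on opposite strands of chromosome 14, and their annotated exons overlap. The last exon of Nefm-202, a minor form with 0.83% and 0.67% of Nefm TPM, covers 1108 of the 3380 bases of Nefl-201, or 32.8%. Without a strand-specific step named in the labels, reads of these bases cannot be told apart by strand. The posterior SD that this shared stretch left on the counts was 16.7 and 15.8 reads, against 39105 and 48539 reads for Nefl and 29672 and 32964 for Nefm. Ina shares 456 exonic bases with Nt5c2, a nucleotidase gene on the other strand with 60.2 and 64.3 TPM, and the posterior SD of its count was 20.1 and 19.7 reads against 32529 and 34440. For the other 5 members the posterior SD at the gene level was 0.
The nearest annotated genes beside the members ranged widely. Fam187a, beside Gfap, had 0.03 and 0 TPM. Tuba1c, an alpha-tubulin gene before Prph, had 50.6 and 48.9 TPM, Bcan, the gene of the matrix proteoglycan brevican after Nes, had 1.87 and 3.21 TPM, and Pcgf6, a Polycomb gene after Ina, had 26.8 and 26.3 TPM. St8sia6, a sialyltransferase gene after Vim, had 0.6 and 0.61 TPM.

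Promoter sequence was found for 5 of the 8 members in the RefSeq promoter table (GRCm38.p6): Vim, Nes, Gfap, Ina and Prph. Nefl, Nefm and Nefh were not among the matches. The 250 bases before each start were searched on both strands for 3 short motifs, the TATA box letters TATAAA, the CCAAT box, and the letters GGGCGG of the GC box, and no matches overlapped each other. The 30 bases from 45 to 16 before the start are shown, where a TATA box usually lies, with TATAAA in capitals.
Vim (chr2:13574266-13574295, plus strand): ttcctaacagtgtTATAAAagcagcgccct
Nes (chr3:87971048-87971077, plus strand): gtatgaataccctcgcttcagctcgctgct
Gfap (chr11:102897216-102897245, minus strand): ctggggcccagctccaccccctcaggctat
Ina (chr19:47014636-47014665, plus strand): cgccccaaccccgcgccttaaaagccccgc
Prph (chr15:99055129-99055158, plus strand): ggagaccgcagggcTATAAAgccgccccgc
Vim and Prph held TATAAA in this window, beginning 32 and 31 bases before the start, and Nes, Gfap and Ina did not hold these letters there or elsewhere in the 250 bases. Of 32851 mouse promoters, 2.14% held TATAAA in the same window and 12.4% anywhere in the 250 bases. CCAAT was found in Vim only, at 196 bases before the start and, on the opposite strand, at 94; it was in 33.8% of all promoters. GGGCGG was found on the opposite strand in Nes (73 and 62 bases before the start), Ina (111 and 12) and Prph (24), and in 32.7% of all promoters. These matches describe letters and not binding. The annotated Vim-201 begins 359 bases before the RefSeq start, so the Vim window lies within its first exon.
The whole 250 bases before Prph (chr15:99054924-99055173, plus strand) are given because Prph differed most between the libraries among the members with a promoter, with TATAAA and the complement of GGGCGG in capitals.
Prph upstream: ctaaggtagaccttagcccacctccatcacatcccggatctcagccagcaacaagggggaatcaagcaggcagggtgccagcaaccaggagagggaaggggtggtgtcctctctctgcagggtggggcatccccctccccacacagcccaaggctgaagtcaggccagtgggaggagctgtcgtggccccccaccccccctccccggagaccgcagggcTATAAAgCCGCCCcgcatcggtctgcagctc
Their G and C content was 65.2%, that of Ina 70.8%, and the median of all promoters 52.4%.

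The 2 pools could be compared with each other, which describes these libraries and no condition. Of the 8 members, 7 had the 10 reads required for the test. By an exact binomial test of the 2 counts, adjusted by Benjamini-Hochberg over 20125 genes, 6 of these 7 were called different, 5 higher and 1 lower in replicate 2, where 20.3% of all genes tested were called, 10.5% higher and 9.78% lower. The members' median log2 ratio of replicate 2 over replicate 1 was 0.07, and that of all genes tested was -0.00. The test covers counting error only, and PCR copies without molecular identifiers are not independent molecules, so shifts of a few percent pass it at these counts. It has no replicate check.

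Prph and Nefh moved most. The Prph counts of 2834 and 4620 gave a log2 ratio of 0.62 (95% counting interval 0.55 to 0.68, 1.53-fold; exact binomial test, adjusted p = 1.99e-70). The Nefh counts of 215 and 361 gave 0.65 (0.41 to 0.91, 1.57-fold; exact binomial test, adjusted p = 2.32e-06). Among 9835 genes at a mean of 10 TPM or more, 0.590% had a ratio at least as far from 0 as that of Prph; Nefh itself lies below 10 TPM, and 0.478% of those genes passed its ratio. As an alternative, edgeR's exact test was run with 1 coefficient of variation, 7.36%, for all genes. That value was estimated from the same 2 libraries and so holds the differences it is set against, which makes the outcome a description with no replicate check. It called 1.13% of all genes, 0.432% higher and 0.696% lower, and of the members Prph (edgeR adjusted p = 0.0112), with Nefh at an edgeR adjusted p of 0.0650. Of the 6 members at a mean of 10 TPM or more, Prph alone was past a log2 ratio of 0.32, beside 3.56% of the 9835 genes at that level, 1.45% of them higher in replicate 2.

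The core subunits shifted less. Nefl was higher in replicate 2, with a log2 ratio of 0.22 (0.20 to 0.24; exact binomial test, adjusted p = 1.73e-111), a size reached by 8.95% of genes at 10 TPM or more. Vim and Nefm were called higher with ratios of 0.07 (0.05 to 0.10) and 0.06 (0.04 to 0.09), which 50.6% and 56.7% of such genes equalled or exceeded. Ina was not called, with -0.01 (-0.03 to 0.02; exact binomial test, adjusted p = 0.743). Its ratio is smaller than the shift that scaling by ERCC spike-ins gave the median of all genes, 0.056, and under that scaling it was 0.05 and called (exact binomial test, adjusted p = 0.000118), so the direction of Ina was not settled.
Nes was the single member called lower in replicate 2, from 13624 and 13161 reads, with a log2 ratio of -0.14 (-0.17 to -0.10; exact binomial test, adjusted p = 2.65e-13). By TPM the Nes ratio was -0.26, which includes the different share of the short Nes-202. In the edgeR alternative none of Vim, Nes, Ina, Nefl and Nefm was called, the lowest adjusted p being 0.925, for Nefl.

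**Figure D5:**
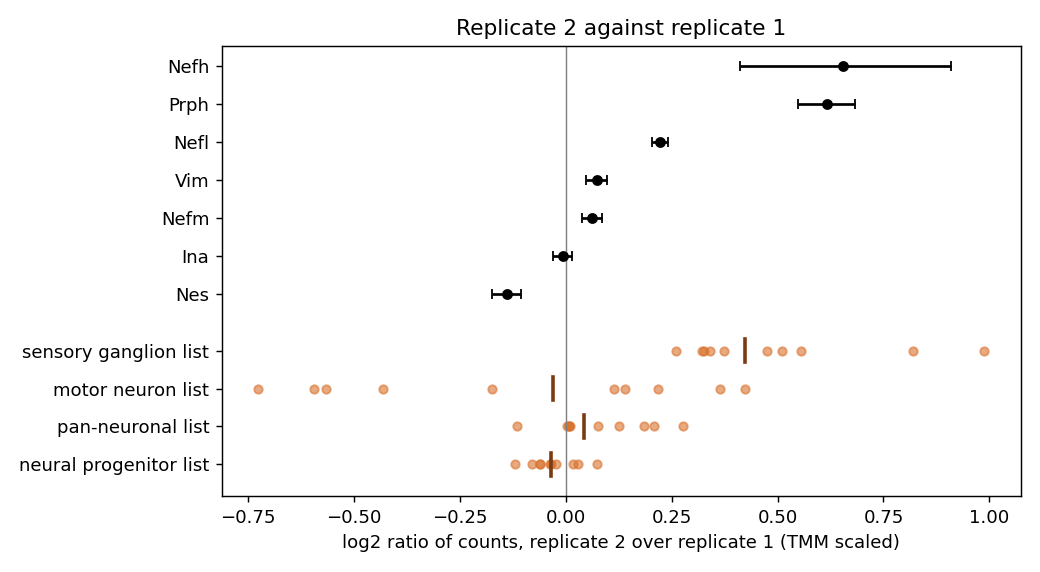
Log2 ratio of TMM-scaled counts, replicate 2 over replicate 1, for the 7 tested filament genes (black points with 95% counting intervals) and for single genes of 4 marker lists (orange points, with a bar at each list's median). Nefh and Prph lie at 0.65 and 0.62, within the span of the sensory ganglion genes, and Nes lies below 0.

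Genes listed for sensory ganglia and for Schwann cells and crest moved in the same comparison. Of 10 sensory ganglion genes, all at 1 TPM or more, 9 were called higher and none lower in replicate 2. Among all genes tested, 10.5% were called higher and 9.78% lower. The list's median log2 ratio was 0.42, and its summed level was 307 TPM in replicate 1 and 419 TPM in replicate 2. Pou4f1, a transcription factor of sensory neurons, had 90.8 and 114 TPM (0.26), and Tlx3, a homeobox factor of sensory neurons, had 50.5 and 65.9 TPM (0.34). Scn10a, a sodium channel gene of pain-sensing neurons, had 2.35 and 5.31 TPM (0.99). Of 6 Schwann cell and crest genes, 4 were called higher and 2 were not called, with sums of 191 and 229 TPM. Ednrb alone had 115 and 134 TPM of these sums. Summed over each list, the sensory ganglion and Schwann genes thus stood higher in the library in which Prph, Nefh and Nefl were higher. This was not particular to them. In replicates 1 and 2 the motor neuron list summed to 306 and 354 TPM, the sympathetic list to 21.7 and 25.1 TPM, and the pan-neuronal list to 3193 and 3520 TPM. Sums were lower in replicate 2 for skeletal muscle (249.7 and 176 TPM), astrocyte and radial glia maturation (265 and 255 TPM) and epithelial genes (27.3 and 27.0 TPM). Which cells of the pooled tissue held these RNAs was not measured. The part of any of these lists in the differences of Prph, Nefh and Nefl was not tested.

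Other marker lists differed from each other in their calls, and only some had calls in both directions. Of all genes tested, 20.3% were called, 10.5% higher and 9.78% lower. Of 10 motor neuron genes 4 were called higher and 5 lower, with a median of -0.03: Isl1, a transcription factor of motor and sensory neurons, had 105 and 148 TPM (0.42), and Mnx1, a more specific motor neuron factor, had 8.03 and 5.46 TPM (-0.59). Of 5 sympathetic genes 1 was called higher and 1 lower: Th, the enzyme that starts catecholamine synthesis, was the higher call at 16.9 and 22.1 TPM, and Dbh and Hand2 were under 1 TPM. All 6 skeletal muscle genes were called lower in replicate 2, with a median of -0.55. Of 7 mesenchyme genes 1 was called lower and none higher, of 5 endothelial genes 2 were called higher and none lower, and none of 4 macrophage and 4 epithelial genes was called.

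Progenitor and pan-neuronal lists had medians near 0, with genes called in both directions. Of all genes tested, 10.5% were called higher and 9.78% lower. Of 10 progenitor genes 1 was called higher and 2 lower (median log2 ratio -0.04) with sums of 2162 and 2231 TPM. Fabp7, the fatty acid binding protein of radial glia, had 1395 and 1464 TPM and was not called, and Hes5, a Notch target, was called lower at 322 and 312 TPM (-0.12). Of 10 pan-neuronal genes 4 were called higher and 1 lower, with a median of 0.04 and sums of 3193 and 3520 TPM. Elavl4 (0.19), Rbfox3 (0.21) and Gap43 (0.13) were called higher besides Stmn2, and Elavl3 was called lower (-0.11). Stmn2, a growth-cone tubulin regulator, was called higher at 432 and 543 TPM (0.28, beside 0.22 for Nefl), while the ratio of Tubb3 was 0.00 and it was not called.

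Astrocyte genes gave the setting for the few Gfap reads. Of 9 genes listed for astrocytes and maturing radial glia, 7 had at least 1 TPM in both libraries. The low ones were the water channel gene Aqp4, with 0.53 and 0.44 TPM, and S100b, a calcium-binding protein gene, with 0.69 and 0.73 TPM. Gja1, the connexin that radial glia also carry, had 103 and 101 TPM. Gfap was below all 9.

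Intermediate filament genes outside the 8 members were led by the B-type lamins. Of 20 other intermediate filament genes, 19 were at 1 TPM or more, and their summed level was 324 and 307 TPM, against 2599 and 2835 TPM for the members. Lmnb1, a lamin of the nuclear envelope, had 136 and 124 TPM, and Lmnb2, its relative, had 47.95 and 45.04 TPM. Des, the desmin of muscle, had 9.93 and 7.34 TPM, and Synm, the large partner subunit synemin, had 9.4 and 11.6 TPM. Of these 20 genes 1, Synm, was called higher and 3, Des, Lmnb1 and Lmnb2, lower in replicate 2. That is near the 20.3% called among all genes tested. Keratins were present, led by Krt10 at 28.2 and 25.4 TPM.

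Genes that anchor, modify and carry filaments were expressed beside them. Of 8 linker and turnover genes, 6 were at 1 TPM or more, with Stub1, a ubiquitin ligase, at 236 and 231 TPM, Trim2, a ligase that acts on the light subunit, at 103 and 119 TPM, and Macf1, a cross-linker of cytoskeletal polymers, at 49.1 and 48.7 TPM. Trim2 was called higher in replicate 2 and Macf1 and Plec, the plectin gene, lower. All 12 kinase genes were expressed: Cdk1, the mitotic kinase that phosphorylates vimentin, at 174 and 176 TPM, Gsk3b, a kinase of many cytoskeletal proteins, at 118 and 111 TPM, and Cdk5, the neuronal kinase of neurofilament tails, at 59.0 and 62.5 TPM. Of these 12, 4 were called lower and none higher. For these lists too, the share of all genes tested was 9.78% called lower and 10.5% called higher. Among 6 motor genes, 2 were called higher and 1 lower; Kif5a, a neuronal kinesin heavy chain, was called higher at 56.9 and 64.4 TPM (0.13), and Kif5c, its relative, was not called at 129 and 133 TPM.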

How the data were processed

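Polyadenylated RNA of 2 pools of mouse neural tube was primed with oligo-dT, fragmented by tagmentation and mixed with ERCC spike-ins, per the labels, which name no strand-specific step. Reads were aligned to the mm10 transcriptome and quantified against GENCODE M21 and M4, per the notes deposited with the libraries; which aligner and quantifier were used is not given in the sources used. The authors deposited the estimated count of each gene and transcript, with reads that match several features shared out. The deposited TPM is that estimate per effective length (length less 99 bases, per the file headers and values), scaled over each whole table. The deposited percent is a transcript's part of its gene's TPM, and the posterior standard deviation of a count is used here as the authors' score of how surely reads were assigned.

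The M21 tables were the main source, and levels are TPM as deposited. Shares, ratios and ranks were computed from them with no pseudocount, in Python 3.11.15 with numpy 2.4.6, pandas 2.3.3 and scipy 1.17.1. For the comparison of libraries, estimated counts were rounded, TMM scaling was applied with edgeR 4.0.16 (R 4.3.3), a gene needed 10 counts or more in at least 1 library, and a prior count of 2 was used in log2 ratios. A two-sided exact binomial test gave p-values, adjusted by Benjamini-Hochberg over all genes tested at 0.05; it was tested on simulated data. The edgeR exact test used a common dispersion estimated from the same 2 libraries in an intercept-only model. DESeq2 1.42.0 size factors, ERCC scaling and the other alternatives are given with the closing results.

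The text names all 8 members, genes among the 3 highest of a list by mean TPM, further listed genes with a stated role, transcripts with at least 5 percent of a member's TPM, and nearest neighbours. The 17 gene lists (138 genes), of which the members are 1, were chosen with earlier results of these data known, and no list was tested. Drgx was found as Prrxl1. Results for some listed genes are not reported here by name.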

Additional observations from a re-analysis of the deposited data

How the results depend on the processing

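Under other processing choices, 3 results changed a call, a direction or the main ratio, and several levels and shares moved by more than their spread. Of the 6 members called between the libraries, the exact test of edgeR with its common dispersion called 1, Prph, but that dispersion came from the same 2 libraries and gives no replicate check; DESeq2 size factors, total counts, no filter and release M4 each gave 6 calls, and ERCC spike-in scaling gave 7. The log2 ratio of Ina, -0.01 after TMM scaling, turned to 0.0085 with DESeq2 size factors, 9.4e-05 with total gene counts and 0.0493 with ERCC scaling, where it was called (exact binomial test, adjusted p = 0.000118); these scalings moved the median of all genes by 0.015, 0.007 and 0.056, so the turn is that of all genes alike. The log2 ratio of neuronal over progenitor filaments, 0.72 as deposited, became 1.27 with all reads on the longest coding transcript, a choice made after seeing the data, and was 0.65 or 0.79 in a single library. The count of expressed members was 7 at 0.5 TPM and 6 at 5 TPM. Of the 8 shares, 7 moved when estimated counts replaced TPM: Vim held 17.4% and Nefl 28.6% of the filament reads, since counts are not per length. Release M4 moved 5 values and rescaling over protein-coding genes 5 levels, and the posterior mean moved 3 values and put Gfap at 0.285 TPM. No paired analysis was possible because the series holds 1 group. With 2 libraries, depth limits Gfap most, and an SD over 2 values is itself uncertain.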
